A study of Mus musculus with 8 samples.

Results

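Myeloid cells speak to T cells through ligands and receptors. Here 10 genes of this kind were followed in granulocytic myeloid-derived suppressor cells (Gr-MDSCs): the PD-1 ligands Cd274 (PD-L1) and Pdcd1lg2 (PD-L2), the CD28 and CTLA-4 ligands Cd80 and Cd86, Icosl, Cd276 (B7-H3), Cd40, Havcr2 (TIM-3), Lgals9 (galectin-9) and Pvr (CD155). They were chosen by name and not by their signals, and they are 10 of the 18194 genes for which the array holds a probe set of a single gene. All 23 such probe sets of the 10 genes were read. For 21 of them the mean signal was high enough for testing, which left each gene with at least 1 tested probe set, and the other 2, of Cd80 and of Pvr, are given as values.

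A T cell needs a second signal besides antigen, and CD80 and CD86 give it through CD28 or withhold it through CTLA-4. PD-L1 and PD-L2 bind PD-1 and dampen T cells that are already active, and interferons are known to raise PD-L1 on tumor and myeloid cells. MDSCs are immature myeloid cells of tumor-bearing hosts that suppress T cells, and they are divided into granulocytic and monocytic kinds.

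The cells came from prostate tumors of PB-Cre+ mice that carry the alleles PtenL/L, p53L/L and Smad4L/L together with the reporters mTmGL/+ and LSL-LucL/+ (the CPPSML model), and every group shares this genotype. In that model Cre is driven by the probasin promoter, which is active in prostate epithelium, so the engineered deletions are directed to the tumor cells. The mice, labelled as 12 to 16 weeks old, had been castrated and fed enzalutamide for 4 weeks, and this too is common to all groups. Gr-MDSCs were isolated with magnetic beads, placed in RPMI-1640 with 10% FBS and treated at once for 6 h with DMSO (4 arrays, numbered 2 to 5), 0.1 µM Dactolisib (2 arrays), an inhibitor of PI3K and mTOR, or 0.1 µM Dasatinib (2 arrays), an inhibitor of Src family and Abl tyrosine kinases. No source used here says whether arrays of a group stand for separate animals or cultures, so p-values measure the spread between these arrays, and their small number limits the precision.

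The 8 arrays (Affymetrix, mouse) fell into 3 sets by the similarity of their signals, and the sets cut across the treatments. Set A holds Dactolisib 1, DMSO 2 and DMSO 4, set B holds Dactolisib 2, Dasatinib 2 and DMSO 3, and set C holds Dasatinib 1 and DMSO 5. The same sets came out when the 10 genes and all other listed genes were left out. That still left 29792 of the 30024 tested probe sets, so the outcome could hardly differ. All 10 granulocyte marker genes were above background on every array. Their mean was 11.29 to 11.48 in set A and 10.40 to 10.88 on the other arrays, and Ltf ranged over 9.29 to 12.94 and Ngp over 6.70 to 10.45. Markers of other cells differed between the sets as well: the mean log2 signal of 11 epithelial genes ranged over 9.28 to 9.48 (set A), 7.06 to 7.38 (set B) and 11.31 to 11.50 (set C), and 4 seminal vesicle genes averaged 11.14 on DMSO 5, 8.19 on Dasatinib 1 and at most 2.82 elsewhere. Monocyte and macrophage genes averaged 7.51 to 8.21, and 11 of 13 were above background on all arrays. Of the T and NK cell markers 3 of 6, and of the B cell markers 5 of 6, were above background on no array. The other 3 T and NK cell markers were above it on all 8 arrays: Cd3e (5.62 to 5.95), Cd3d (5.07 to 5.42) and Ncr1 (4.87 to 5.39). The same held for the B cell marker Pax5 (5.18 to 5.73). Of the 10 dendritic cell markers 6 were above background on all arrays, such as Itgax (8.23 to 9.42), and 3 (Zbtb46, Xcr1 and Ccr7) on none. Each drug was therefore compared with DMSO in limma both without regard to the sets (without the block) and with the set as a block (within array sets). The second estimate draws only on sets that hold the drug, so that Dactolisib then stands against DMSO 2, 3 and 4 and Dasatinib against DMSO 3 and 5.

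Of the 10 genes, 9 had a probe set above background on all 8 arrays. Background here is the 95th percentile of 79 probe sets of odorant and other sensory receptors, which lay at log2 signals of 4.80 to 5.18 depending on the array. Over all genes 9771 of 18194 (53.7%) met the same criterion. The exception was Cd276, which was above background on 3 arrays. With the 99th percentile the count was again 9, and with hair and lens genes as background it was 8, since Pvr then missed it on 1 array. Signals of different probe sets are not on a common scale, so that levels were compared between arrays and not between genes.

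**Figure D1:**
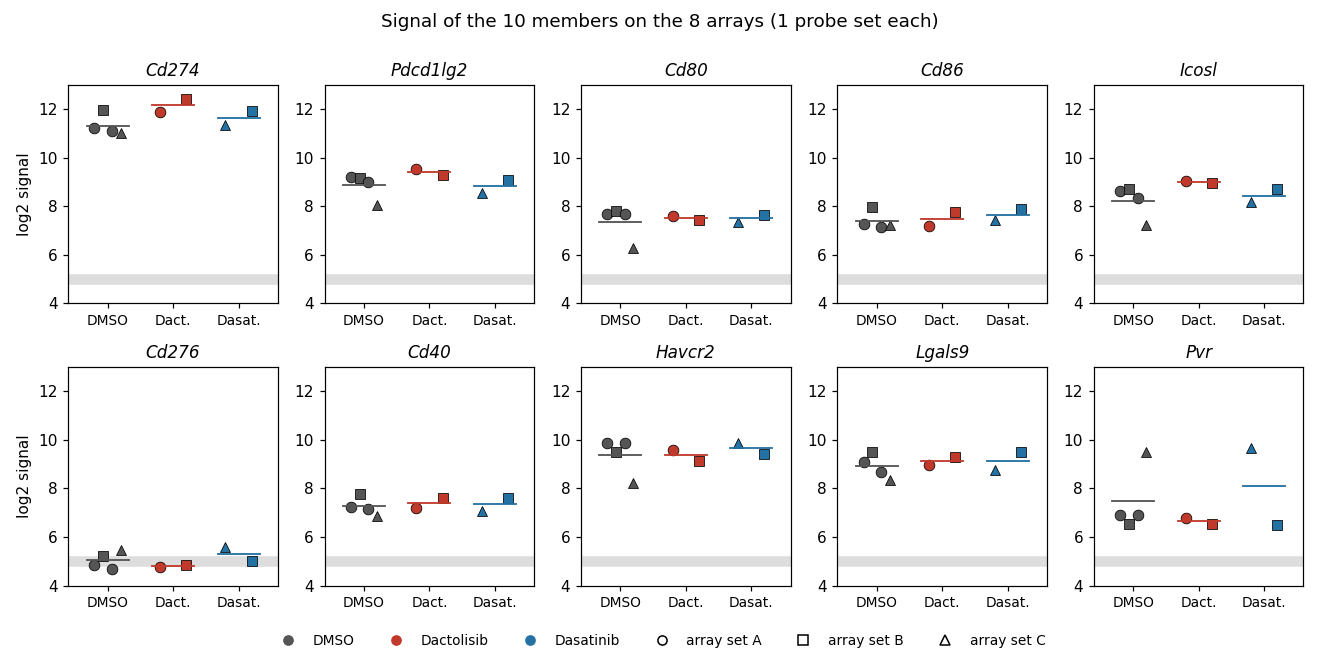
Log2 signal of the 10 genes (1 probe set each, the one with the highest mean) on 8 arrays by treatment. Points are arrays, color gives the treatment, shape the array set, short lines the group means, and the grey band the range of the background level (4.80 to 5.18). Cd276 lies at the band, and the arrays of set C stand apart for Pvr.

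Of the PD-1 ligands, Cd274 was higher under Dactolisib when arrays of the same set were compared. Its probe set read 11.90 on Dactolisib 1 and 12.44 on Dactolisib 2, against 11.21, 11.96, 11.12 and 11.01 on DMSO 2 to 5. The highest value of all was on Dactolisib 2, but Dactolisib 1 lay below DMSO 3, so that the groups overlapped by a little. Within its own array set each Dactolisib array was the higher one, Dactolisib 1 by 0.73 over the mean of DMSO 2 and DMSO 4 and Dactolisib 2 by 0.48 over DMSO 3. The controls of set A differed much less from each other, DMSO 4 minus DMSO 2 being -0.09. Within array sets limma gave a log2 difference of 0.63 ± 0.09 (SE), or 1.54-fold, with an adjusted p of 0.0152 over 30024 probe sets, and Cd274 was the 1 member of 10 called, in a comparison that called 2.19% of all probe sets higher and 4.20% lower. Without the block the difference was 0.84 ± 0.31 with an adjusted p of 0.775, and here limma called 0 of 30024 probe sets (0% of them), with 868 higher (2.89%) and 1005 lower at an unadjusted p under 0.05, Cd274 among the former as the only member. The unpaired t-test named in the methods also called 0 after adjustment, and 935 higher and 955 lower before it. The difference within sets was 0.73 without Dactolisib 2 and likewise without DMSO 3, since both fits then rest on set A. It was 0.48 without Dactolisib 1. Each of these fits leaves 1 difference between a Dactolisib array and the controls of its set. They therefore cannot test how the call depends on these arrays. In RNA from a bulk isolate, a change in the share of a cell type and a change in RNA per cell cannot be told apart.

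Pdcd1lg2, which encodes the second PD-1 ligand and lies next to Cd274 on chromosome 19, moved less. Its signals were 9.53 and 9.31 on the Dactolisib arrays and 9.21, 9.17, 9.02 and 8.07 on DMSO 2 to 5. Both Dactolisib arrays were above every DMSO array, and DMSO 5 was far below the other controls. The difference was 0.30 ± 0.10 within array sets (limma adjusted p = 0.129) and 0.55 ± 0.34 without the block (adjusted p = 0.78). Pdcd1lg2 and Icosl were the 2 members with both Dactolisib arrays above all DMSO arrays, a pattern found in 11.4% of all probe sets, and 0 members had both below, against 9.58%.

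Dasatinib left the PD-1 ligands without a call. Cd274 read 11.35 on Dasatinib 1 and 11.95 on Dasatinib 2, and Pdcd1lg2 read 8.57 and 9.07. For Cd274 the Dasatinib arrays lay 0.34 above DMSO 5 and -0.01 from DMSO 3, their controls in the same sets, and for Pdcd1lg2 the values were 0.49 and -0.10. The limma estimates within array sets were 0.17 ± 0.12 (adjusted p = 0.852) for Cd274 and 0.20 ± 0.16 (adjusted p = 0.857) for Pdcd1lg2. When the drugs were set against each other in limma, Dactolisib exceeded Dasatinib in Cd274 by 0.47 ± 0.13 within array sets (adjusted p = 0.178) and by 0.52 ± 0.37 without the block (adjusted p = 0.841).

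The sequences upstream of the 3 genes with the highest Dactolisib estimates are shown, since these are the genes for which both Dactolisib arrays exceeded the controls of their sets. They are the 250 bases before the annotated start in RefSeq (GRCm38.p6), and capitals mark a match to a motif. They lie at chr19:29367188-29367437 (Cd274), chr19:29410669-29410918 (Pdcd1lg2) and chr10:78069118-78069367 (Icosl), all on the + strand.
Cd274: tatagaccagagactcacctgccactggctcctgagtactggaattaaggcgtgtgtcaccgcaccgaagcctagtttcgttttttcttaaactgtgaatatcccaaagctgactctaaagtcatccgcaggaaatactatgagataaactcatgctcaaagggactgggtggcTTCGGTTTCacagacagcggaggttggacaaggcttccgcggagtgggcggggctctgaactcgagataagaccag
Pdcd1lg2: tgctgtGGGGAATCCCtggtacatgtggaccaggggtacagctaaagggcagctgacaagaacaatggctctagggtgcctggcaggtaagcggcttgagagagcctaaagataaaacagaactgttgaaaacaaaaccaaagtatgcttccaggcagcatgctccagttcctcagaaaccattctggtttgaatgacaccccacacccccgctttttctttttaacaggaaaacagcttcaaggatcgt
Icosl: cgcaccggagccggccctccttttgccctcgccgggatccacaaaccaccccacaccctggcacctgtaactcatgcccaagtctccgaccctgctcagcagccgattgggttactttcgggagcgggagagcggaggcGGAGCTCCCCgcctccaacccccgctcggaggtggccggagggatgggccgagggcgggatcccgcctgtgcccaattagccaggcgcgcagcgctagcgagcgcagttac
Both strands were searched for the STAT element TTCNNNGAA, the interferon regulatory factor element GAAANNGAA, the FoxO element GTAAACA and the NF-kB element, which occur in 7.0%, 7.1%, 3.2% and 7.3% of 32841 promoters of this length. Cd274 holds an interferon regulatory factor element read on the opposite strand, at -76 to -68 from the start. In Pdcd1lg2 there is an NF-kB element at -244 to -235 and in Icosl one at -111 to -102. Lgals9 has an interferon regulatory factor element at -54 to -46, and Cd80, Cd276 and Havcr2 have none of the 4. No matches overlapped one another. Of the 10 genes 7 were matched to a promoter, and Cd86, Cd40 and Pvr were not. A match describes letters in this window and says nothing of binding in these cells.

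Icosl, the ligand of the T cell costimulator ICOS, read 9.03 and 8.97 under Dactolisib and 8.62, 8.70, 8.36 and 7.25 on DMSO 2 to 5. Both Dactolisib arrays again stood above every control. They exceeded the controls of their own sets by 0.54 and 0.28, while DMSO 4 minus DMSO 2 was -0.25. The difference was 0.43 ± 0.11 within array sets, with an adjusted p of 0.0613 that missed the threshold, and 0.77 ± 0.41 without the block (adjusted p = 0.776). The other probe set of Icosl, which was above background on no array, gave 0.20 ± 0.10 within array sets (adjusted p = 0.27). Under Dasatinib the signals were 8.16 and 8.73, 0.91 above DMSO 5 and 0.03 above DMSO 3.

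The CD28 and CTLA-4 ligands did not share this direction. Cd80 read 7.59 and 7.45 under Dactolisib and 7.69, 7.79, 7.70 and 6.27 on DMSO 2 to 5. DMSO 5 was the lowest array, and the Dactolisib arrays lay below the other 3 controls. Relative to the controls of their sets they stood at -0.10 and -0.33, and the 2 further tested probe sets of Cd80 gave -0.22 and -0.43, and -0.31 and -0.42. Within array sets the 3 probe sets gave -0.20 ± 0.09, -0.31 ± 0.09 and -0.36 ± 0.09, with adjusted p values of 0.211, 0.0764 and 0.0646 in limma. Without the block the probe set with the highest signal gave 0.16 ± 0.45 (adjusted p = 0.909), the opposite sign. The fourth probe set of Cd80 was above background on no array, with signals of 3.79 to 4.16.

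Cd86 stood by array set. It read 7.17 on Dactolisib 1 beside 7.29 and 7.14 on the controls of set A, and 7.75 on Dactolisib 2 beside 7.99 on DMSO 3. The Dasatinib arrays read 7.44 and 7.88, and DMSO 5 read 7.22. The arrays of set B were the 3 highest. Its difference within array sets was -0.13 ± 0.09 for Dactolisib (adjusted p = 0.455) and 0.06 ± 0.12 for Dasatinib (adjusted p = 0.947). The other probe set of Cd86 gave -0.14 ± 0.08 for Dactolisib (limma adjusted p = 0.372) and, with the opposite sign, -0.11 ± 0.12 for Dasatinib (adjusted p = 0.892). Cd40, a receptor of the TNF family through which helper T cells activate antigen-presenting cells, behaved alike: its signals were 7.60 to 7.78 in set B and 6.88 to 7.23 in sets A and C. The mean of 20 interferon-stimulated genes was likewise higher in set B (9.73 to 9.80) than in set A (8.82 to 8.96), although Dasatinib 1 had the highest (9.93), and its part in the Cd86 and Cd40 levels was not tested. For Cd40 the differences within sets were -0.08 ± 0.08 for Dactolisib (adjusted p = 0.635) and 0.02 ± 0.12 for Dasatinib (adjusted p = 0.979). Its further probe sets, also not called, gave 0.01 ± 0.10 and 0.02 ± 0.14 for Dactolisib and 0.13 ± 0.12 and 0.19 ± 0.18 for Dasatinib.

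Havcr2, a checkpoint receptor that is carried by myeloid cells as well as by exhausted T cells, read 9.59 and 9.15 under Dactolisib and 9.88, 9.51, 9.86 and 8.21 on DMSO 2 to 5. Each Dactolisib array lay below the controls of its own set, by -0.28 and -0.36, and DMSO 4 minus DMSO 2 was -0.02. The limma difference within array sets was -0.31 ± 0.08 with an adjusted p of 0.0584, just above the threshold, and without the block it was 0.01 ± 0.50 (adjusted p = 0.998). DMSO 5 was the lowest array for Havcr2 and Cd80, and leaving it out turned the sign of the Dactolisib difference without the block to -0.38 for Havcr2 and to -0.20 for Cd80. Lgals9, whose product is a secreted lectin and a ligand of TIM-3, read 8.97 and 9.28 under Dactolisib, 8.78 and 9.52 under Dasatinib and 9.09, 9.52, 8.70 and 8.36 on DMSO 2 to 5. These ranges overlapped throughout. Its difference within array sets was -0.06 ± 0.13 for Dactolisib (adjusted p = 0.843) and 0.21 ± 0.16 for Dasatinib (adjusted p = 0.856).

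**Figure D2:**
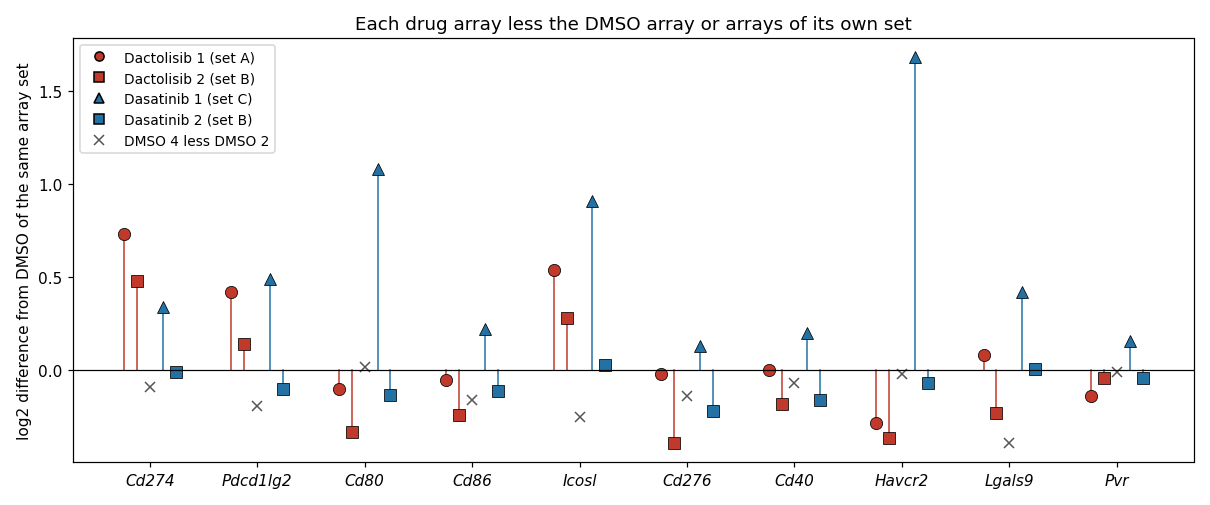
Log2 difference of each drug array from the DMSO array or arrays of its own set, for the same probe sets of the 10 genes; crosses give DMSO 4 minus DMSO 2. Both Dactolisib arrays are above 0 for Cd274, Pdcd1lg2 and Icosl, and the values of Dasatinib 1 for Havcr2 (1.68), Cd80 (1.08) and Icosl (0.91) have no counterpart on Dasatinib 2.

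Counted over the 10 genes by the probe set with the highest signal, 3 were higher on both Dactolisib arrays than in the controls of their sets, and 6 were lower. The corresponding shares of all probe sets were 32.1% and 33.5%, so that the count of higher members was near that share and the count of lower members above it, a difference that was not tested. Several of the 6 were lower by very little on 1 array: Cd40 by 0.0 after rounding, Cd276 at -0.02 and Cd86 at -0.05 on Dactolisib 1, and Pvr at -0.04 on Dactolisib 2. Further probe sets of Cd40 stood at 0.09 and 0.21 on Dactolisib 1. At an unadjusted p under 0.05 within array sets 3 members were higher (Cd274, Pdcd1lg2 and Icosl) and 2 lower (Cd80 and Havcr2), where 9.68% of all probe sets were higher and 13.9% lower.

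With Dasatinib 0 of 10 members were called, without the block or within array sets, and limma called 0 of 30024 probe sets in either (0%). At an unadjusted p under 0.05 there were 52 higher and 58 lower without the block, and the t-test of the methods gave 136 and 210, with 0 after adjustment. Within array sets 2.12% were higher and 2.75% lower at that level, and among the members Cd80 passed with 1 probe set (0.50 ± 0.17, adjusted p = 0.85). Cd80 read 7.35 on Dasatinib 1 and 7.66 on Dasatinib 2, and Havcr2 read 9.89 and 9.44. Both genes were thus near the levels of the other arrays, and their differences of 1.08 and 1.68 on Dasatinib 1 were taken against its only control of the same set, DMSO 5, the lowest of the 8 arrays for both. On Dasatinib 2 the differences from DMSO 3 were -0.13 and -0.07. The 2 arrays of set C also differed in listed genes of other kinds: the interferon-stimulated genes averaged 9.93 on Dasatinib 1 and 8.88 on DMSO 5, the monocyte and macrophage markers 8.21 and 8.05, and the granulocyte markers 10.40 and 10.74. The part of these in the Cd80 and Havcr2 values was not tested. Without Dasatinib 2, or without DMSO 3, the estimate within array sets is this 1 pair of set C, 1.08 for Cd80 and 1.68 for Havcr2. The only spread left in such a fit is that between DMSO 2 and DMSO 4 of set A. It holds no spread of Dasatinib arrays or of set C, so it cannot test these differences.

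Under Dasatinib 0 members had both arrays above all DMSO arrays (1.90% of all probe sets) and 0 both below (2.40%). Relative to the controls of their own sets, 2 members, Icosl and Lgals9, were higher on both Dasatinib arrays (22.3% of probe sets) and 0 were lower on both (24.9%). On Dasatinib 2 the differences were only 0.03 for Icosl and 0.01 for Lgals9, and the other Icosl probe set stood at -0.01 on Dasatinib 1. Dactolisib against Dasatinib gave 0 calls without the block and 0 within array sets (0% in both), with 459 higher and 633 lower at an unadjusted p under 0.05 without the block and 0 called by the t-test after adjustment. At an unadjusted p under 0.05 within array sets, where 5.35% of probe sets were higher and 8.93% lower under Dactolisib, Cd274 was higher and Cd80 (-0.77 ± 0.18, 1 probe set) and Havcr2 (-0.86 ± 0.37) were lower, with limma's adjusted p values of 0.178, 0.138 and 0.346. Only set B holds both drugs, so these estimates also run through the DMSO arrays of sets A and C. In set B, Dactolisib 2 and Dasatinib 2 read 12.44 and 11.95 for Cd274, 5.95 and 6.51 for that Cd80 probe set, and 9.15 and 9.44 for Havcr2. In set C the control was DMSO 5, the lowest array for Cd80 and Havcr2.

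**Figure D3:**
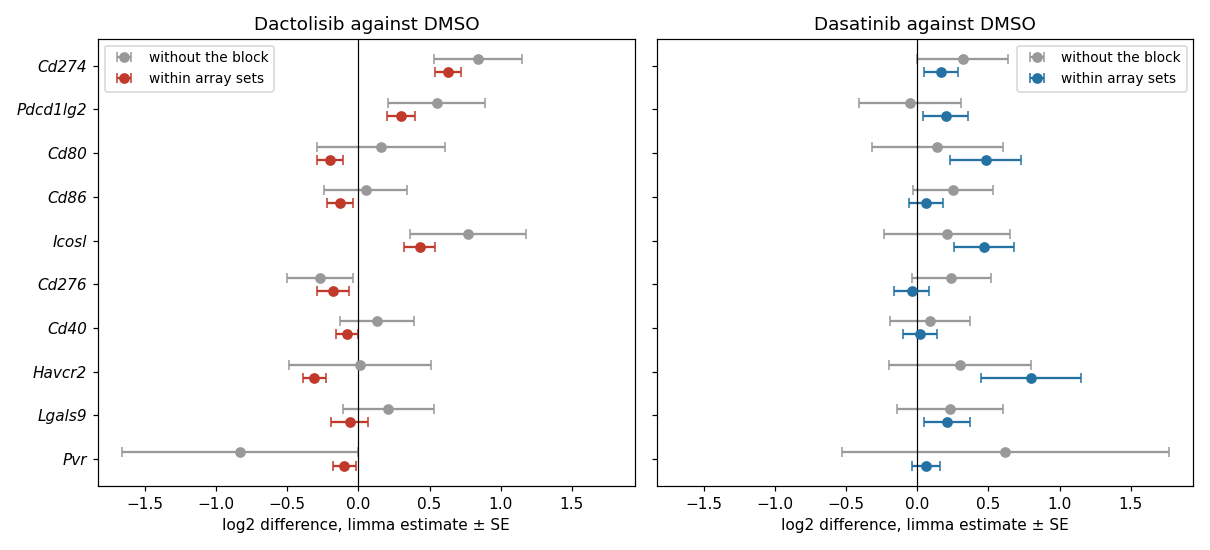
Log2 difference from DMSO for the 10 genes with its standard error in limma, Dactolisib on the left and Dasatinib on the right. Grey points are without the block and colored points within array sets; for Dactolisib the block narrows the error of Cd274 from 0.31 to 0.09 and that of Pvr from 0.83 to 0.08.

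Pvr, the poliovirus receptor that binds CD226 and TIGIT on T and NK cells, had the widest range of the 10. Its signals were 9.50 on DMSO 5 and 9.66 on Dasatinib 1, and 6.51 to 6.92 on the other 6 arrays. Set C thus lay apart from sets A and B whatever the drug, and 4 further probe sets showed the same gap, with 7.93 to 9.79 in set C and 5.54 to 6.61 elsewhere. The remaining 2 probe sets of Pvr were above background on no array. The 11 epithelial genes were also highest in set C, and their part in the Pvr signal was not tested. Pvr was close to the controls of the same set with either drug, at -0.14 and -0.04 for Dactolisib and 0.16 and -0.04 for Dasatinib. The difference within array sets was -0.10 ± 0.08 for Dactolisib (adjusted p = 0.515) and 0.06 ± 0.10 for Dasatinib (adjusted p = 0.928). Without the block the Dasatinib estimate of 0.62 ± 1.15 became -0.96 when Dasatinib 1 was left out.

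Cd276, a B7 family member found on many tumor and stromal cells, was near background. It read 4.76 and 4.83 under Dactolisib, 5.60 and 5.0 under Dasatinib and 4.85, 5.22, 4.70 and 5.47 on DMSO 2 to 5. The 3 arrays above background were DMSO 3 and the 2 arrays of set C. The difference within array sets was -0.18 ± 0.11 for Dactolisib (adjusted p = 0.372) and -0.04 ± 0.12 for Dasatinib (adjusted p = 0.96), and at this level low signals limit what can be detected.

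**Figure D4:**
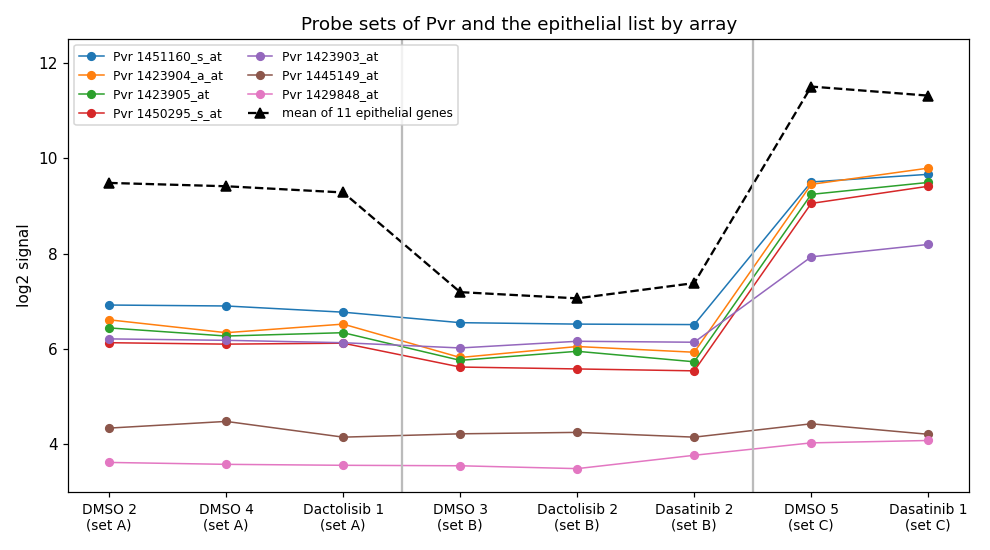
Log2 signal of the 7 Pvr probe sets on the 8 arrays, ordered by array set, with the mean of 11 epithelial genes (dashed). The 5 Pvr probe sets above background are highest in set C, as is the epithelial mean (11.31 to 11.50).

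Among 23 other ligands of antigen-presenting and tumor cells on the array, 14 were above background on all arrays and 7 on none. Of the 20 that were tested, 3 were higher and 2 lower under Dactolisib within array sets, with a median difference of -0.09 against 0.00 for all 14237 genes tested, of which 2.24% were higher and 4.66% lower. Fgl2, a fibrinogen-like protein with suppressive activity on T cells, fell by 0.96 on the log2 scale (SE 0.11, limma adjusted p = 0.00941). Ceacam1, an inhibitory adhesion receptor and TIM-3 ligand, fell by 0.42 (SE 0.08, adjusted p = 0.0261). Its signal was highest in set C (11.87 and 12.03) and lowest in set B (9.01 to 9.51), as was that of the epithelial markers, of which Cldn4 (-0.48 ± 0.09) and Cdh1 (-0.33 ± 0.08) were called lower in the same fit, and their part in the Ceacam1 value was not tested. Tnfsf14 (LIGHT) and its receptor Tnfrsf14 (HVEM) were higher by 0.46 ± 0.08 (adjusted p = 0.0212) and 0.48 ± 0.09 (adjusted p = 0.0265). Cd200 was also called higher (0.59 ± 0.08, adjusted p = 0.0116), although it was above background on no array. Without the block 0 of the 20 were called, and 2 were higher at an unadjusted p under 0.05, as were 389 of all 14237 genes. Under Dasatinib 0 were called in either fit, and the estimates nearest to a call within array sets were Tnfrsf14 (0.34 ± 0.12) and Lgals1 (-0.68 ± 0.26), both with an adjusted p of 0.85.

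Part of the receptors on the T cell side were at background. Of 14, 8 were above background on no array, among them Pdcd1 (2.46 to 2.77), Ctla4 (3.16 to 3.71), Cd28 (3.90 to 4.46) and Cd226 (2.14 to 2.44), which encode receptors of the PD-1 ligands, of CD80 and CD86, and of Pvr. Other partners were slightly above background, Icos on all 8 arrays (4.97 to 5.35) and Cd40lg on 7 (4.94 to 5.46). With Icos, 5 of the 14 were above background on all 8, the others being Tnfrsf9 (4-1BB, 6.91 to 8.11), Tnfrsf4 (6.67 to 7.16), Tnfrsf18 (5.31 to 6.05) and Cd160 (4.82 to 5.28). Of the 10 tested, 0 were called in any of the 3 comparisons, without the block or within array sets. Under Dactolisib 2 were higher at an unadjusted p under 0.05 in each of these fits. Of all 14237 genes tested, 389 were higher at that level without the block and 1305 within array sets. The lowest p values under Dactolisib within array sets were those of Lag3 (0.28 ± 0.08, adjusted p = 0.0923), itself above background on no array, and Cd40lg (0.27 ± 0.09, adjusted p = 0.129).

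Of 19 factors known to govern the expression of these ligands, 18 were above background on all arrays, and 1 was called under Dactolisib within array sets. This was Relb, a subunit of the non-canonical NF-kB pathway, at 0.51 ± 0.09 (adjusted p = 0.0261). Irf1, which carries the interferon signal to Cd274, was at 0.32 ± 0.08 (adjusted p = 0.0623) and Cmtm6, which keeps PD-L1 protein at the cell surface, at -0.29 ± 0.08 (adjusted p = 0.0762). Of 20 interferon-stimulated genes 1 was called, Gbp2 at 0.38 ± 0.09 (adjusted p = 0.0491), and the list had medians of 0.03 and -0.06 on the 2 Dactolisib arrays relative to the controls of their sets. Under Dasatinib 0 of the 20 were called, with medians of 0.97 on Dasatinib 1 and 0.00 on Dasatinib 2, and Gbp3 at 0.85 ± 0.32 (adjusted p = 0.85). At an unadjusted p under 0.05 in limma, 7 of the 20 were higher without the block and 8 within array sets. Of all 14237 genes tested, 20 and 265 were higher at that level. Under Dactolisib within array sets, markers were called lower in several lists: 3 of 13 of monocytes and macrophages (Cx3cr1, C1qa and C1qc), 2 of 10 of granulocytes (Mmp9 and Cxcr2), 2 of 11 of epithelium (Cldn4 and Cdh1), 1 of 10 of dendritic cells (Itgax) and 1 of 8 of fibroblasts (Postn), where 4.66% of all genes were lower. The part of these markers in the values of the ligands was not tested.

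Genes whose signals followed a member most closely over the 8 arrays were ranked by the root mean square of the log2 differences after each gene's own mean was taken off. Cd274 was followed by Dapp1 (0.081) and Socs3 (0.098), the feedback inhibitor of STAT3 signalling, which read 10.98 and 11.56 under Dactolisib and 9.99 to 11.14 on the DMSO arrays. Nearest to Pdcd1lg2 were Sh3bp5 (0.070) and Pcyt1a (0.074), and to Icosl Vav1 (0.087) and Cenpa (0.089). Cd80 was followed by Lfng (0.068) and Zfp677 (0.074), and Lgals9 by Zfp869 (0.093) and H2-T24 (0.107). The nearest to Havcr2 were farther off, Lyl1 (0.126) and Cd48 (0.168). Pvr was followed by Mt1 (0.104) and Gstm2 (0.113), which share its high values in set C. The arrays share their set structure, so that such likeness is a description of 8 arrays.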

How the data were processed

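RNA of 8 samples of Gr-MDSCs was measured on 8 arrays, and the values analysed are log2 signals of 45101 probe sets that the authors summarised from the scanned arrays and deposited as 1 table. Array medians were 4.82 to 4.87. MAS5 stands in the submitters' processing notes and the oligo package in the published methods, which leaves the summary method, and with it the behaviour of low signals, unsettled. A genome build is not given in the sources used here. The labels name Trizol and the methods RNeasy for RNA extraction. Titles gave the groups, because for Dasatinib samples the field for treatment names Dactolisib.

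The 64 control probe sets were left out. Of the other 45037, 34945 have 1 gene in the platform annotation, 932 have several and 9160 have none. The 30024 with the highest mean signal over the 8 arrays (66.7%, a mean of at least 3.98) were tested with limma 3.58.1 under R 4.3.3, taking moderated p-values with Benjamini-Hochberg adjustment over all of them and a threshold of 0.05. The fit for a drug against DMSO held the 6 arrays concerned, and that for drug against drug all 8. Array sets came from hierarchical clustering of the tested probe sets (average linkage, Pearson distance), and Spearman correlations were at least 0.982 within and at most 0.972 between sets. With the set as a block few residual degrees of freedom remain, so these p-values lean on the variance shared across probe sets. The sets were also drawn from the signals that were then tested, so the spread within sets, and with it these p-values, may be too low. The fits were tested on simulated data.

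The members, the other gene lists and the block were chosen with earlier results of these data known. Text names follow a rule: all members, per other list and drug comparison the 2 genes with the lowest p in each fit, and for members ranging over more than 1 log2 unit the 2 genes nearest in pattern. Ceacam1, Cmtm6, Cd28, Tnfrsf9 and Tnfrsf18 fall under it through another comparison. The T cell receptors Pdcd1, Ctla4, Cd226, Icos, Tnfrsf4 and Cd160 and all cell type markers were named after their values were seen. Promoters come from RefSeq (GRCm38.p6). The alternatives were quantile normalization, 32 added before log2, no filter or the upper 33.3% only, array weights, a robust prior with a trend, the t-test of the methods, the array set or the replicate number as a block, other arrays in the fit, averaging the probe sets of a gene, and leaving out each array. Alternatives to the fit within array sets were chosen after seeing the data.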

Additional observations from a re-analysis of the deposited data

Results flagged for a closer look

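In the DMSO group 1 array, DMSO 5, stood apart from the other 3 for 7 of the 23 probe sets of the 10 genes, its gap to the nearest array exceeding Dixon's limit as a share of the group's range. Of these 7, 4 are of Pvr, 2 of Cd80 and 1 of Pdcd1lg2. Chance gives such a gap for some array in about 1 of 20 groups, but DMSO 5 is the only DMSO array of set C, and it exceeded the limit in 2952 of the 30024 tested probe sets (9.83%). DMSO 5 was low for Pdcd1lg2 (8.07 against 9.02 to 9.21, a share of 0.836) and for Cd80, with 6.27 against 7.69 to 7.79 (0.932) and, on another probe set, 5.09 against 6.37 to 6.60 (0.845). It was high for Pvr, with 9.50 against 6.55 to 6.92 (0.877), 9.05 against 5.62 to 6.13 (0.851), 7.93 against 6.02 to 6.21 (0.901) and, on a probe set below background, 4.03 against 3.55 to 3.62 (0.844). On the same array the epithelial list averaged 11.50 and the seminal vesicle list 11.14, and their part in these values was not tested.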

How the results depend on the processing

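Without the block the Dactolisib comparison called 0 probe sets and 0 members in limma under quantile normalization, 32 added before log2, no filter and the upper 33.3% only. It also called 0 under the trended and robust prior, array weights, all 8 arrays in 1 fit, the t-test and the loss of any DMSO array. With the array set as a block it called 1919 probe sets and 1 member, Cd274. Within sets the members called were 4 with 32 added (Cd274, Icosl, Cd80, Havcr2) and the same 4 with the upper 33.3% only. They were 5 with the trended and robust prior (with Pdcd1lg2). Leaving out DMSO 2 gave 3 (Cd274, Icosl, Cd80), and leaving out DMSO 4 or DMSO 5 gave 1, Cd274. The shares of all probe sets called under these settings are not given here, so these counts are not read as a result about the members. The loss of a Dactolisib array leaves 1 in the group, and within sets the loss of DMSO 3 leaves 1 Dactolisib difference. Calls of those fits are left out. For Dasatinib, leaving out any DMSO array gave 0 probe sets without the block, and leaving out DMSO 2 or DMSO 4 gave 0 members within sets. The loss of a Dasatinib array leaves 1 in the group, and within sets the loss of DMSO 3 or DMSO 5 leaves 1 pair. Such fits hold no spread between Dasatinib differences, so their calls are left out. For Dactolisib against Dasatinib, leaving out any DMSO array gave 0 probe sets without the block and 0 members within sets. The loss of a drug array leaves 1 in its group, and calls of those fits are left out too. The replicate numbers of the labels could block the direct comparison of the drugs, and this replicate block called 0 probe sets (393 higher and 869 lower at an unadjusted p under 0.05). The deviations of Dactolisib 1 and Dasatinib 1 from their group means correlated at 0.559 over probe sets. The labels give the 2 pairs only a shared number, but Dactolisib 2 and Dasatinib 2 also share set B, while Dactolisib 1 is in set A and Dasatinib 1 in set C. The part of the sets in this correlation was not tested. A drug and DMSO share a single number, so no such fit was made for them.

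Signs turned for several members, and the cause was not tested. For Dactolisib the block gave -0.20 for Cd80, -0.13 for Cd86, -0.08 for Cd40, -0.31 for Havcr2 and -0.06 for Lgals9. Array weights gave -0.15 for Cd80 and -0.42 for Havcr2, 32 added gave 0.00 for Havcr2, and the mean of both Cd86 probe sets 0.00. For Dasatinib the block gave 0.20 for Pdcd1lg2 and -0.04 for Cd276, and array weights gave -0.16 for Cd80, -0.05 for Icosl and -0.12 for Havcr2. Leaving out each array without the block gave for Dactolisib -0.20 to 0.30 for Cd80, -0.24 to 0.34 for Cd86, -0.07 to 0.33 for Cd40 and -0.38 to 0.23 for Havcr2. For Dasatinib it gave -0.31 to 0.20 for Pdcd1lg2, -0.22 to 0.30 for Cd80, -0.11 to 0.50 for Icosl, -0.06 to 0.54 for Cd276, -0.18 to 0.36 for Cd40, -0.09 to 0.52 for Havcr2, -0.14 to 0.61 for Lgals9 and -0.96 to 2.20 for Pvr. Within sets the Dasatinib ranges were -0.01 to 0.34 for Cd274, -0.10 to 0.49 for Pdcd1lg2, -0.13 to 1.08 for Cd80, -0.11 to 0.22 for Cd86, -0.22 to 0.13 for Cd276, -0.16 to 0.20 for Cd40, -0.07 to 1.68 for Havcr2 and -0.04 to 0.16 for Pvr, and the Dactolisib range for Lgals9 was -0.23 to 0.08. Cd274 under Dactolisib was positive in every alternative run, from 0.57 to 1.12 without the block and from 0.48 to 0.73 within sets. With 2 arrays per drug, and 1 DMSO array in each of sets B and C, differences of the size seen for Icosl or Havcr2 under Dactolisib passed the threshold under some settings and not under others, and signals near background, as for Cd276, give little range to detect one.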
